A study of Mus musculus with 18 samples.

Results

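The potassium channel genes described here are all genes whose symbol starts with Kcn, a set that takes in pore-forming subunits, auxiliary subunits, interacting proteins and 3 noncoding transcripts named after a channel gene. On the arrays 84 of 18194 genes met this rule, with 167 probe sets between them, and 46 of the 84 had more than 1 probe set. Each gene was represented by the probe set with the highest mean over all 18 arrays. Its level is given as log2(intensity + 16) after quantile normalisation, so a step of 1 is close to a doubling for a bright gene, and levels of different genes are not set against each other.

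Potassium channels let potassium leave or enter the cell and so set the resting potential, the firing threshold and the shape and spacing of action potentials. Voltage-gated channels are built from pore subunits of the Shaker, Shaw, Shal, ether-a-go-go and KCNQ families, joined by modulatory, beta and KChIP subunits. Inward rectifiers and tandem-pore channels carry resting currents, and calcium- or sodium-activated channels follow spiking. In spinal cord, motor neurons use these channels to set their firing rate, while astrocytes and oligodendrocytes take up potassium through inward rectifiers.

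Expression was measured on Affymetrix mouse arrays in 18 samples of 6 groups with 3 samples each, after T7-based linear amplification per the labels. Spinal motor neurons, facial motor neurons (from a motor nucleus of the brainstem) and ventral spinal cord tissue were each sampled from SOD1 mutant mice and from wildtype mice. SOD1 encodes a superoxide dismutase whose mutations cause amyotrophic lateral sclerosis. Neither the SOD1 allele and its promoter, nor the animals' age, nor how the motor neurons were collected is given in the labels, and the titles carry a D60 with no explanation. Because no label ties a sample to an animal, a p-value here covers the variation among the arrays of a group, part of which may be technical.

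The labelled cell types were checked against markers. The mean level of 7 motor neuron markers was 11.69 to 13.06 on the motor neuron arrays and 9.89 to 10.36 on the tissue arrays, without overlap. Of these 7, Slc5a7 averaged 9.67 in wildtype spinal and 9.85 in wildtype facial motor neurons, below the 10.08 of wildtype tissue. In SOD1 mutant mice it averaged 9.94 in spinal and 10.47 in facial motor neurons, against 10.27 in tissue. Mnx1, a homeobox gene of spinal motor neurons, averaged 12.46 in SOD1 mutant and 12.25 in wildtype spinal motor neurons, but 5.71 in SOD1 mutant and 5.17 in wildtype facial motor neurons, which is background. Oligodendrocyte markers averaged 13.19 to 14.18 on the motor neuron arrays, against 16.21 to 16.44 on the tissue arrays, so RNA of other cells was present in the motor neuron samples. The actin controls, which compare signal at the 3' and the 5' end of the transcript, gave ratios of 25.3 to 74.4 on the motor neuron arrays and of 1.56 to 1.78 on the tissue arrays.

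Of the 84 genes, 45 had a mean over the 18 arrays at or above 8.79, the 40th percentile of all genes, and 39 lay below it. Levels under 8.79 are treated as close to background, and differences that involve such a level are given in log2 units without a fold. All 3 Shaw genes, all 3 Shal genes and all 3 beta subunit genes were above this level. So were 3 of 7 Shaker genes, 3 of 4 KChIP genes, 2 of 3 KCNQ genes, 4 of 9 modulatory subunit genes, 3 of 6 ether-a-go-go genes, 8 of 15 inward rectifiers, 5 of 12 tandem-pore genes, 2 of 4 small-conductance genes, 4 of 7 genes of large-conductance, sodium-activated and related channels, and 2 of 3 noncoding transcripts. None of the 5 KCNE genes, which encode small auxiliary subunits, reached it. A gene was tested in a comparison only if its mean over the arrays compared was at or above the 40th percentile of all genes, which left 10916 genes in every fit; 38 Kcn genes were tested in every comparison, 18 in some and 28 in none.

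**Figure D1:**
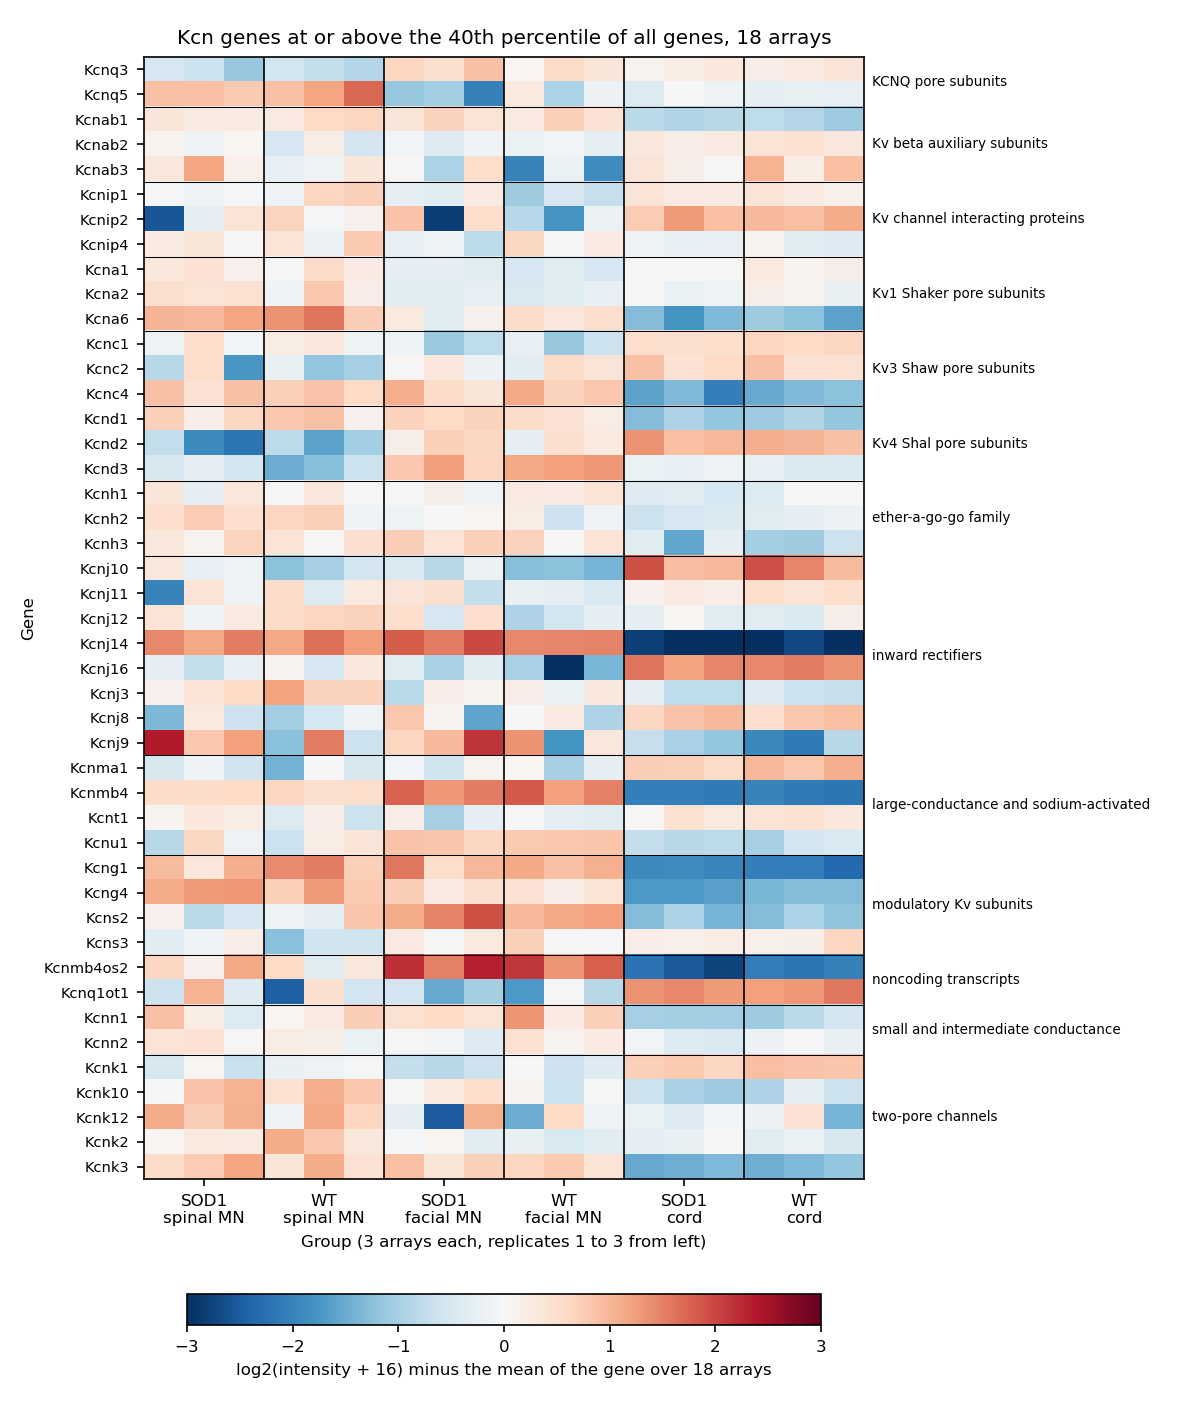
Levels of the 45 Kcn genes at or above the 40th percentile of all genes on each of the 18 arrays. Each row is a gene, grouped by family, and the colour is log2(intensity + 16) minus the mean of that gene over the 18 arrays; columns are the 3 arrays of each group. Kcnj14, Kcnmb4 and Kcng1 are higher on every motor neuron array than on any tissue array, and Kcnj10 is lower on every one.

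Motor neurons differed from cord tissue in a majority of the Kcn genes bright enough to test, as they did in a majority of all genes tested. Kcnj14, Kcnmb4, Kcng1, Kcng4, Kcna6, Kcnc4 and Kcnk3 were higher in wildtype motor neurons of both sites, by log2 differences of 1.67 to 4.42 on the brightest probe set of each, and Kcnj10, Kcnj16 and Kcnk13 were lower, by log2 differences of -1.48 to -3.28. Kcnk13 passed the brightness filter only through the tissue arrays, as did Kcnj16 at the facial site, and Kcng1 only through the motor neuron arrays. In wildtype spinal motor neurons against wildtype tissue, 35 of 48 tested Kcn genes passed limma's test at an adjusted p of 0.05 (72.9%), 19 higher and 16 lower, where 58.7% of all tested genes passed, 35.5% higher and 23.1% lower. In wildtype facial motor neurons, 38 of 49 passed (77.6%), 19 higher and 19 lower, where 68.2% of all tested genes passed, 41.3% higher and 26.9% lower. Both shares were within 15 percentage points of those of all genes, and both comparisons use the same wildtype tissue arrays. The median log2 difference of the tested Kcn genes was 0.41 at the spinal site and 0.05 at the facial site, against 0.22 for all tested genes at either site. In bulk RNA, fewer cells of a type and less RNA per cell cannot be told apart, and the actin ratio, which did not overlap between motor neurons and tissue, cannot be told apart from this contrast either.

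Among the inward rectifiers, Kcnj14 had the greatest log2 difference of all Kcn genes in both wildtype comparisons. It encodes Kir2.4, known in rat from motor neurons of the cranial nerve nuclei. Its level was 14.94, 15.42 and 15.03 in wildtype spinal motor neurons, 15.23, 15.24 and 15.26 in wildtype facial motor neurons and 10.61, 11.08 and 10.77 in wildtype tissue. All 6 motor neuron arrays lay above all 3 tissue arrays, by 19.8-fold at the spinal site (log2 difference 4.31 ± 0.20, SE; limma adjusted p = 2.48e-06) and by 21.4-fold at the facial site (4.42 ± 0.13, SE; limma adjusted p = 2.46e-07). Kcnj3, a subunit of G protein-gated rectifiers, was also higher at both sites on its brightest probe set, by 1.43 and 0.67 on the log2 scale.

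Kcnj10 and Kcnj16, whose products Kir4.1 and Kir5.1 form the potassium uptake channels of glia, went the other way. Kcnj10 measured 12.99, 13.24 and 13.67 in wildtype spinal motor neurons, 12.95, 12.99 and 12.83 in wildtype facial motor neurons and 16.15, 15.68 and 15.17 in wildtype tissue. No motor neuron array reached the lowest tissue array, and the log2 differences were -2.36 ± 0.26 and -2.74 ± 0.21 (SE). Kcnj16 fell by 1.48 and by 3.28 on the log2 scale, the second value resting on facial arrays at 9.28, 7.05 and 8.87, close to background. Kcnj8, the pore of ATP-sensitive channels of vessels, was lower by log2 differences of -1.30 and -0.97. It averaged 8.53 in wildtype spinal motor neurons, close to background, and 8.86 in wildtype facial ones. Astrocyte markers were lower in both comparisons in 7 of 7 tested genes and oligodendrocyte markers in 6 of 6; the part of other cells in the Kcn differences was not tested.

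Of the 9 genes of modulatory subunits, which form no channel alone and change the gating of Shab-type channels, 4 were bright enough to test. At the spinal site 3 of these 4 (Kcng1, Kcng4 and Kcns2) were called higher, where 35.5% of all genes were, and Kcns3 was lower (-1.15), at a mean of 8.78 that is close to background. At the facial site the same 3 were called higher, where 41.3% of all genes were, and Kcns3 had a log2 difference of -0.13 that did not pass. Kcng4 stood at 13.97, 14.53 and 14.05 in wildtype spinal motor neurons, 13.70, 13.47 and 13.68 in wildtype facial motor neurons and 11.90, 11.97 and 11.97 in wildtype tissue, so the groups did not overlap (4.71-fold and 3.17-fold). Kcng1 had 12.02, 12.14 and 11.31 in wildtype spinal and 11.74, 11.47 and 11.67 in wildtype facial motor neurons, against 8.56, 8.52 and 8.26 in wildtype tissue. The tissue level of Kcng1 is close to background, and its log2 differences were 3.38 ± 0.29 and 3.18 ± 0.21 (SE). Kcns2 was higher by 1.28 at the spinal and 2.26 at the facial site on the log2 scale.

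Kcnmb4, the neuronal beta subunit of large-conductance calcium-activated channels, was higher in motor neurons on every array. It read 13.88, 13.71 and 13.76 in wildtype spinal motor neurons, 15.08, 14.47 and 14.76 in wildtype facial motor neurons and 11.23, 11.12 and 11.08 in wildtype tissue. This amounts to 6.24-fold at the spinal site (limma adjusted p = 5.63e-06) and 12.3-fold at the facial site (limma adjusted p = 8.42e-07). The noncoding Kcnmb4os2, annotated as an opposite-strand transcript of Kcnmb4, moved the same way by log2 differences of 2.29 and 3.84, from tissue arrays near background. Kcnq1ot1, the noncoding transcript of the imprinted Kcnq1 locus, was lower by log2 differences of -2.23 and -2.24.

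In the tandem-pore family, Kcnk3, an acid-sensitive resting channel, was higher. Its level was 12.60, 13.36 and 12.66 in wildtype spinal and 12.88, 13.03 and 12.65 in wildtype facial motor neurons, against 10.78, 10.92 and 11.08 in wildtype tissue. The groups did not overlap, and the folds were 3.86 and 3.80. Kcnk2 and Kcnk10, mechanically gated relatives, were higher at the spinal site by 1.11 and 1.40 on the log2 scale, whereas their facial log2 differences of 0.01 and 0.44 missed the threshold. Kcnk13, the tandem-pore channel known from microglia, was lower by log2 differences of -3 and -2.75 and lay close to background in motor neurons. At means of 7.66 and 7.91 there, against 10.66 in wildtype tissue, it passed the brightness filter only through the tissue arrays. Microglia markers were called lower in 5 of 9 tested genes at the spinal and in 6 of 8 at the facial site, where 23.1% and 26.9% of all genes were.

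Among the voltage-gated pore subunits, Kcna6 of the Shaker family was higher by log2 differences of 2.54 and 1.78, Kcnc4 of the Shaw family by 2.08 and 2.23, and Kcnd1 of the Shal family by 1.66 and 1.46. Kcnd2, which encodes the A-type channel Kv4.2, was lower by -2.13 and -0.82. Its relative Kcnd3, which encodes Kv4.3, was lower at the spinal site (-0.76) and higher at the facial site (1.61). Kcnh3 and the small-conductance gene Kcnn1 were higher at both sites, by log2 differences of 1.17 to 1.59. Of the KChIP subunits that bind Shal channels, Kcnip1, Kcnip2 and Kcnip3 were lower at the facial site. Kcnip4 was higher there (0.50, limma adjusted p = 0.0438), with groups that overlapped. Kcnip2 and Kcnip3 averaged 8.21 and 6.89 in wildtype facial motor neurons, close to background, so both passed the brightness filter only through the tissue arrays. At the spinal site none of the 3 tested members was called. Kcnip3 was left out there by the brightness filter, at 5.42, 6.46 and 6.22 in wildtype spinal motor neurons, against 10.76, 10.81 and 10.82 in wildtype tissue. The groups did not overlap, and with no filter its log2 difference was -4.77 ± 0.48 (SE; limma adjusted p = 5.33e-05).

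**Figure D2:**
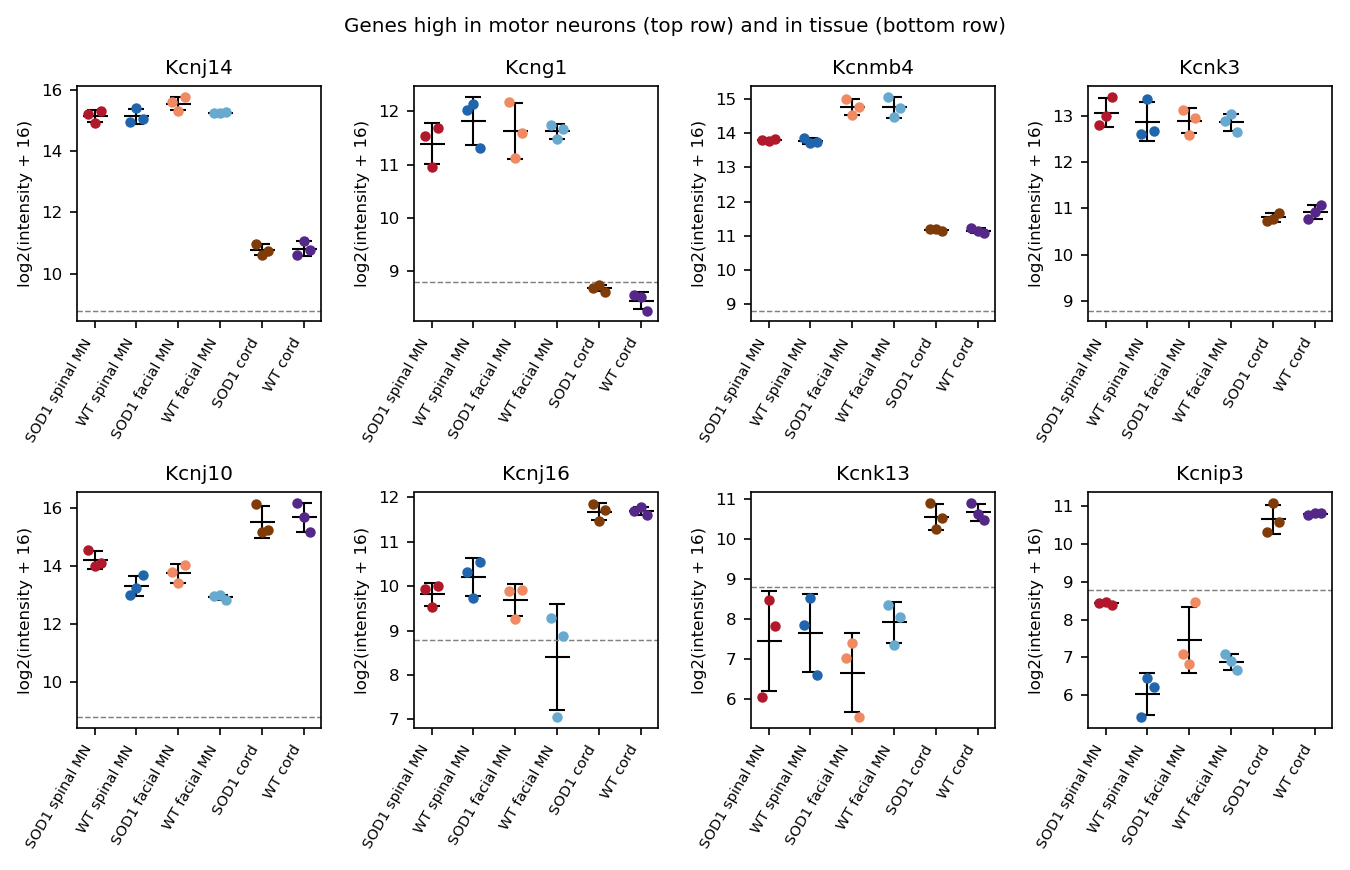
Levels of 8 Kcn genes in all 6 groups as log2(intensity + 16), with 1 point per array, the bar at the mean and whiskers of 1 SD (n = 3); the dashed line marks 8.79, the 40th percentile of all genes. Kcnj14, Kcng1, Kcnmb4 and Kcnk3 are higher on every motor neuron array than on any tissue array, and Kcnj10, Kcnj16, Kcnk13 and Kcnip3 are lower on every one.

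The direction of several of these genes depended on the probe set. Of the 35 genes called at the spinal site, 15 had another probe set bright enough to test; in 8 every other probe set had the same sign, and in 6 (Kcna6, Kcnab1, Kcnc4, Kcnj3, Kcnma1 and Kcnt1) another one was called in the opposite direction. At the facial site 20 of 38 had another tested probe set, and in 7 (Kcna6, Kcnab1, Kcnc4, Kcnd2, Kcnip4, Kcnj3 and Kcnma1) another one was called the opposite way. For Kcna6 the other probe set gave -2.07 and -1.93, and for Kcnc4 -2.81 and -2.87, against the positive differences above. Kcnma1, the pore of large-conductance calcium-activated channels, was lower on its brightest probe set by -1.60 and -1.37, and higher on others by 1.57 at the spinal site and by 2.15 and 2.10 at the facial site. Kcnj14, Kcng4, Kcnmb4 and Kcnj10 have 1 probe set each, so no such check exists for them.

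Scaling also bore on direction. With the arrays shifted to a common median in place of quantile normalisation, the median of all genes was 0.69 at the spinal and 0.77 at the facial site instead of 0.22, and the called Kcn genes split 24 higher to 12 lower and 25 higher to 11 lower. The higher ones made up 66.7% and 69.4% of the Kcn calls, against 78.6% and 78.5% of the calls over all genes. Under that scaling the sign of 3 genes turned at the spinal site (Kcnab2, Kcnc1 and Kcnk1) and of 4 at the facial site (Kcna1, Kcna2, Kcnab2 and Kcnk1). All genes named above with a direction kept their sign.

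The same contrast was made in the mutant mice, an addition made after the wildtype values were seen. In SOD1 mutant spinal motor neurons against SOD1 mutant tissue, 41 of 50 tested Kcn genes were called (82%, against 68.8% of all genes), 25 higher and 16 lower, where 42% of all genes were higher and 26.8% lower. In SOD1 mutant facial motor neurons 34 of 49 were called (69.4%, against 65.3%), 20 higher and 14 lower, where 40.6% of all genes were higher and 24.7% lower. At the spinal site 31 genes were called in the same direction in both genotypes, which is 88.6% of the wildtype calls and 77.5% of the mutant calls among genes tested in both. At the facial site 27 were shared, 73.0% of the wildtype and 79.4% of the mutant calls. Over all genes the shares were 90.2% and 76.7% at the spinal site and 81.6% and 85.1% at the facial site. Kcnj14 again had the greatest positive difference, 4.38 and 4.77 on the log2 scale. Of the KChIP genes at the facial site, Kcnip3 was called lower again (-3.19), but averaged 7.46 in SOD1 mutant facial motor neurons. That is close to background, so Kcnip3 passed the brightness filter only through the tissue arrays. Kcnip1 (-0.41), Kcnip2 (-1.46) and Kcnip4 (-0.17) were not called.

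Proteins that bind potassium channels moved in both directions on the brightest probe set of each gene. Other probe sets of these genes, and of the pumps and cotransporters below, were not checked. Of a list of 18, 17 were on the arrays. At the spinal site, where 58.7% of all genes were called, 8 of 12 tested were called, and 3 of them were higher in wildtype motor neurons than in wildtype tissue, namely Adam23 (1.73), the Shal auxiliary subunit Dpp10 (1.49) and Cntnap2 (1.46), which holds Shaker channels beside the nodes of Ranvier. The other 5 were lower, namely Lgi1 (-2.93), Cntn2 (-1.82), Ank3 (-1.64), Dlg4 (-1.51) and Dlg2 (-1.09). At the facial site 12 of 13 were called, where 68.2% of all genes were, 4 higher and 8 lower. Of the pumps and cotransporters that keep the potassium gradient, 7 of a list of 11 were on the arrays, and 4 of 5 tested were lower at the spinal site (23.1% of all genes) and 5 of 6 at the facial site (26.9% of all genes), among them the sodium pump subunits Atp1b2 (-2.05 and -3.14) and Atp1b3 (-2.75 and -2.25).

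Spinal and facial motor neurons differed in a set of voltage-gated channel genes, and the mutant mice showed much of what the wildtype mice showed on separate arrays. Kcnd2, Kcnd3, Kcnq3, Kcnmb4 and the noncoding Kcnmb4os2 were lower in spinal than in facial motor neurons of both genotypes, and Kcna1 was higher. In wildtype mice 7 of 45 tested Kcn genes passed limma's test (15.6%), 2 higher and 5 lower in spinal motor neurons, where 3.97% of all genes passed, 2.13% higher and 1.83% lower. In SOD1 mutant mice 12 of 44 passed (27.3%), 6 higher and 6 lower, where 7.3% of all genes passed, 4.09% higher and 3.22% lower. Among the 42 Kcn genes tested in both genotypes, 6 were called in the same direction in both, which is 85.7% of the wildtype calls and 50% of the mutant calls. Over all genes, 47.3% of the wildtype and 25.8% of the mutant calls were shared. The groups did not overlap in 53.3% of the Kcn genes tested in wildtype and in 38.6% in mutant mice, against 28.5% and 28.4% of all genes.

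Kcnd3 had the most negative difference in wildtype mice. It stood at 11.86, 12.06 and 11.79 in SOD1 mutant spinal motor neurons, against 13.15, 13.59 and 12.98 in SOD1 mutant facial motor neurons. In wildtype mice it stood at 10.85, 11.07 and 11.69 in spinal motor neurons, against 13.49, 13.58 and 13.64 in facial motor neurons. Every spinal array lay below every facial array, by 2.51-fold in mutant mice (log2 difference -1.33 ± 0.20, SE; limma adjusted p = 0.00307) and 5.16-fold in wildtype mice (-2.37 ± 0.24, SE; limma adjusted p = 0.00234). The difference between these genotype-specific values did not pass the test (1.04 ± 0.32, SE; limma adjusted p = 0.428).

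Kcnd2 followed the same order. In SOD1 mutant mice it measured 11.32, 10.13 and 9.86 in spinal and 12.23, 12.77 and 12.66 in facial motor neurons, and in wildtype mice 11.26, 10.45 and 11.02 in spinal and 11.79, 12.53 and 12.35 in facial motor neurons. No spinal array reached its facial group, and spinal motor neurons were 4.35-fold lower in mutant (limma adjusted p = 0.00362) and 2.49-fold lower in wildtype mice (limma adjusted p = 0.0427). Its other tested probe sets agreed in sign, with log2 differences of -1.85 and -2.14 in mutant and -2.24 and -1.50 in wildtype mice. Kcnd1, the remaining Shal gene, had log2 differences of -0.16 and 0.20 and was not called.

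Kcnmb4 read 13.80, 13.79 and 13.84 in SOD1 mutant spinal motor neurons, against 15, 14.53 and 14.77 in SOD1 mutant facial motor neurons, with wildtype values as given above. The difference was -0.96 in mutant and -0.98 in wildtype mice on the log2 scale (limma adjusted p = 0.00309 and 0.0191), and the groups did not overlap in either. The 250 bases before the annotated start of Kcnd2, Kcnd3 and Kcnmb4 are shown as examples of genes that were lower in spinal motor neurons of both genotypes. Kcnq3 and Kcnmb4os2, which were lower as well, are not shown. The sequences come from RefSeq's annotation of GRCm38.p6. Capitals mark GGGCGG, the core of the GC box, on either strand, and CCAAT and TATAAA were searched on both strands as well without a match in these windows.
Kcnd2 chr6:21215096-21215345 plus strand: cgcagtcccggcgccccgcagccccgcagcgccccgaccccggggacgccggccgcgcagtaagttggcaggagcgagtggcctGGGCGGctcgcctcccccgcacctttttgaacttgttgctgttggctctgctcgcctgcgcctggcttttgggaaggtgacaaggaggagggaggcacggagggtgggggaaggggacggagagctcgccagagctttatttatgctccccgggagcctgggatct
Kcnd3 chr3:105451640-105451889 plus strand: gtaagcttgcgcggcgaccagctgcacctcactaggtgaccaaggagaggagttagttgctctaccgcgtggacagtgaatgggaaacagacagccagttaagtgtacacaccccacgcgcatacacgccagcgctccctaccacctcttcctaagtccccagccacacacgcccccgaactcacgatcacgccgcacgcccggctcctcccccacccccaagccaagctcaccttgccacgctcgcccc
Kcnmb4 chr10:116473524-116473773 minus strand: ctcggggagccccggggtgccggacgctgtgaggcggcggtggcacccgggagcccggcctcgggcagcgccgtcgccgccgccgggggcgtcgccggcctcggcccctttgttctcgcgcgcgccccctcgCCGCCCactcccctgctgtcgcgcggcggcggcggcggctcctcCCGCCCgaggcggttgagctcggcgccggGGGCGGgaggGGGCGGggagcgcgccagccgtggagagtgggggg
The Kcnd2 window held 1 GGGCGG, the Kcnmb4 window 4 and the Kcnd3 window none, with 22, 43 and 18 CpG sites and GC contents of 68.8%, 83.6% and 62.8%. Of 32851 promoter windows of this length in the same table, 32.7% held GGGCGG, 33.8% CCAAT and 12.4% TATAAA, and the median window had 6 CpG sites and a GC content of 52.4%. Among 89 windows of Kcn genes on the arrays, 44.9% held GGGCGG, 30.3% CCAAT and 3.4% TATAAA. Their median was 7 CpG sites and a GC content of 58.8%. These matches describe the letters only.

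The 3 tested Shaker genes, whose channels repolarise axons, were all called higher in spinal motor neurons of mutant mice, where 4.09% of all genes were. In wildtype mice 1 of the 3 was called higher, where 2.13% of all genes were. Kcna1 had 16.22, 16.32 and 16.03 in SOD1 mutant spinal motor neurons, against 15.60, 15.60 and 15.54 in SOD1 mutant facial motor neurons. In wildtype mice it had 15.90, 16.47 and 16.14 in spinal motor neurons, against 15.40, 15.53 and 15.40 in facial motor neurons. The spinal arrays lay above the facial arrays in both genotypes, by 1.53-fold in mutant and 1.65-fold in wildtype mice (limma adjusted p = 0.00500 and 0.0303). The log2 differences in mutant mice were 0.75 for Kcna2 and 1.05 for Kcna6. A dimmer Kcna6 probe set gave -0.54 in mutant mice, which did not pass (limma adjusted p = 0.516). In wildtype mice the differences of Kcna2 (0.65) and Kcna6 (0.76) did not pass (limma adjusted p = 0.118 and 0.105).

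Kcnq3 and Kcnq5, subunits of the M-current that limits repetitive firing, differed in opposite directions. Kcnq3 measured 12.33, 12.18 and 11.70 in SOD1 mutant spinal and 13.47, 13.30 and 13.71 in SOD1 mutant facial motor neurons, a 2.68-fold lower level (limma adjusted p = 0.00230). In wildtype mice it measured 12.26, 12.11 and 11.95 in spinal and 12.88, 13.41 and 13.20 in facial motor neurons, a 2.08-fold lower level (limma adjusted p = 0.0278). The groups did not overlap in either genotype. A second, dimmer Kcnq3 probe set gave log2 differences of -1.11 in mutant and 0.73 in wildtype mice, neither of which passed.

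Kcnq5 stood at 10.62, 10.64 and 10.52 in SOD1 mutant spinal motor neurons, against 8.60, 8.69 and 7.72 in SOD1 mutant facial motor neurons, where it was close to background. The log2 difference was 2.26 ± 0.39 (SE; limma adjusted p = 0.00599). In wildtype mice the difference was 1.54 ± 0.40 (SE) and did not pass (limma adjusted p = 0.0656). In mutant mice Kcng4 (0.75) and Kcnh2 (0.63), the erg channel gene, were also higher in spinal motor neurons, and Kcns2 was lower (-1.91). In wildtype mice Kcnk2 was higher (1.10), at 13.08, 12.78 and 12.29 in spinal and 11.73, 11.51 and 11.63 in facial motor neurons; its mutant difference was 0.30 (limma adjusted p = 0.385).

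**Figure D3:**
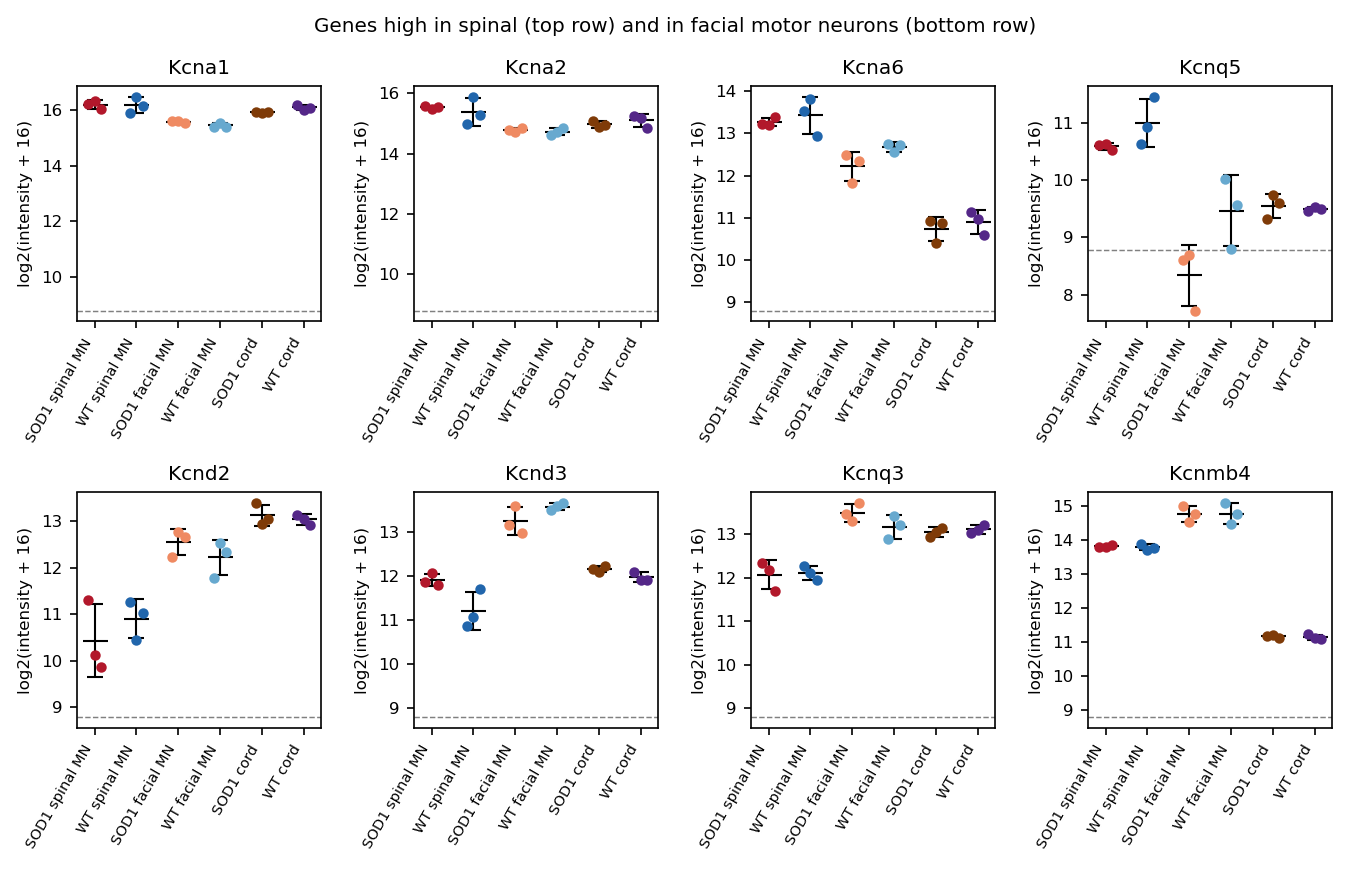
Levels of 8 Kcn genes in all 6 groups as log2(intensity + 16), with 1 point per array, the bar at the mean and whiskers of 1 SD (n = 3); the dashed line marks 8.79, the 40th percentile of all genes. The means of spinal motor neurons lie above those of facial ones in both genotypes for Kcna1, Kcna2, Kcna6 and Kcnq5 and below them for Kcnd2, Kcnd3, Kcnq3 and Kcnmb4.

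**Figure D4:**
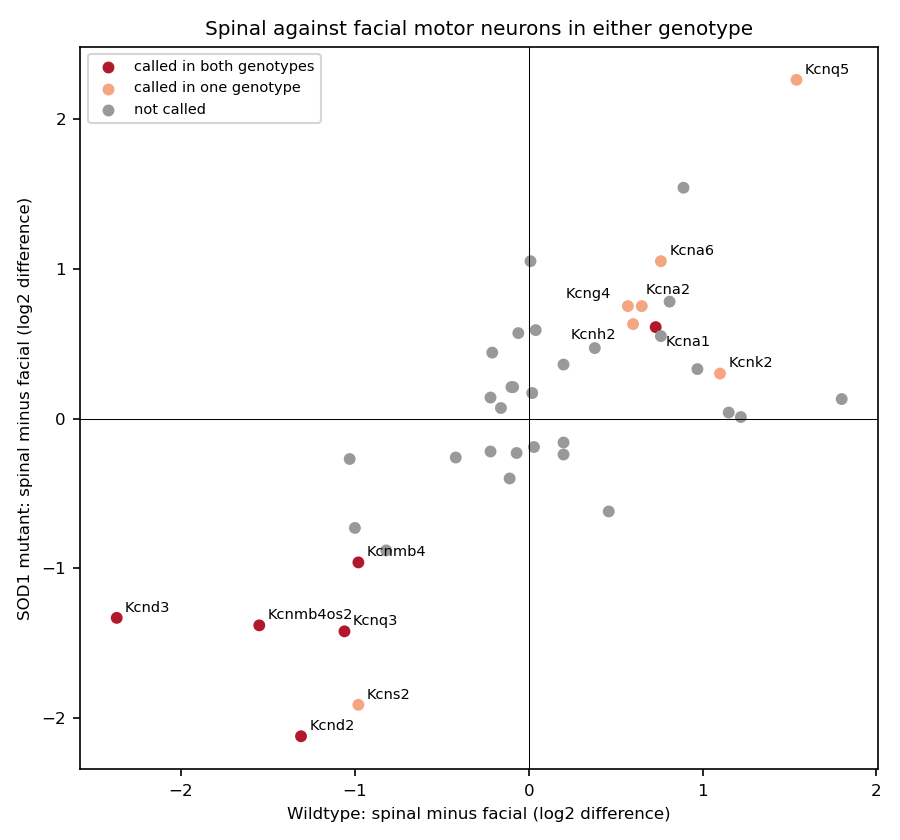
Spinal minus facial log2 difference of the 42 Kcn genes tested in both genotypes, wildtype on the x axis and SOD1 mutant on the y axis; colours mark genes that passed limma's test in both genotypes, in 1 of them or in none. The 6 genes called in both have the same sign in both.

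The wildtype calls rested on few arrays. Without wildtype spinal replicate 3 or wildtype facial replicate 3, Kcnd3 was the 1 Kcn gene called. Without wildtype facial replicate 2 there were 2 calls and without wildtype facial replicate 1 there were 3, Kcnd3 among them each time. With the actin ratio as a covariate no wildtype Kcn gene passed, and the ratio did not overlap between the sites, at 40.9 to 56.9 on wildtype spinal and 59.7 to 74.4 on wildtype facial arrays. In mutant mice the ratio overlapped, at 25.3 to 39.1 on spinal and 26.6 to 59.0 on facial arrays, and 11 of the tested Kcn genes passed with the covariate. Markers of interneurons had a positive difference at the spinal site in 4 of 4 tested genes in either genotype. Of these, 1 was called higher in mutant and 2 in wildtype mice, where 4.09% and 2.13% of all genes were. The mean level of the interneuron markers was 8.97 to 12.58 on SOD1 mutant spinal and 8.64 to 9.20 on SOD1 mutant facial arrays. Microglia markers were called higher at the spinal site in 8 of 9 tested genes in mutant mice and in none of 8 in wildtype mice, and astrocyte markers in 2 of 7 in mutant and 2 of 6 in wildtype mice. The part of these cells in the Kcn differences was not tested.

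Between genotypes no Kcn gene passed limma's test in any of the 3 kinds of sample. In spinal motor neurons the count was 0 of 46 tested, with 0.0641% of all genes called, in facial motor neurons 0 of 45, with 0% of all genes called, and in cord tissue 0 of 49, with 0.623% of all genes called. At an unadjusted p of 0.05, 4, 7 and 8 Kcn genes passed, beside 9.49%, 17.9% and 9.91% of all genes. The arrays of the genotypes did not overlap for 13.0%, 24.4% and 18.4% of the tested Kcn genes, against 14.3%, 24.1% and 15.7% of all genes. The median log2 differences of the Kcn genes, 0.01, 0.01 and -0.06, lay beside 0.01, 0.02 and -0.01 for all genes. For the median Kcn gene the 95% interval, which is not adjusted for the number of genes, reached 0.59, 0.52 and 0.34 log2 units to either side. The adjusted test is stricter, so smaller changes could not be seen and larger ones could also be missed.

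The gene closest to the threshold in motor neurons of both sites was Kcnj10. It measured 14.56, 13.98 and 14.10 in SOD1 mutant spinal motor neurons, against 12.99, 13.24 and 13.67 in wildtype spinal motor neurons. In facial motor neurons it measured 13.78, 13.40 and 14.04 in SOD1 mutant mice, against 12.95, 12.99 and 12.83 in wildtype mice. The mutant arrays lay above the wildtype arrays at both sites, with log2 differences of 0.91 (95% interval 0.42 to 1.4; limma adjusted p = 0.274) and 0.82 (0.42 to 1.21; limma adjusted p = 0.114). In tissue the difference was -0.15 (-0.78 to 0.47). The actin 3' to 5' ratio also separated the genotypes without overlap, at 25.3 to 39.1 on SOD1 mutant and 40.9 to 56.9 on wildtype spinal arrays, and at 26.6 to 59.0 on SOD1 mutant and 59.7 to 74.4 on wildtype facial arrays. With this ratio as a covariate the Kcnj10 difference was 0.99 at the spinal and 0.41 at the facial site, and neither passed. Astrocyte markers averaged 12.45 to 12.72 on SOD1 mutant and 11.56 to 11.99 on wildtype spinal arrays, and 11.56 to 12.24 on SOD1 mutant and 10.79 to 11.76 on wildtype facial arrays. Of them 1 of 6 tested was called higher at the spinal site (Gfap) and none of 6 at the facial site, and Gfap in wildtype facial and Slc1a3 in wildtype spinal motor neurons were under 8.79. The tested astrocyte markers had a median log2 difference of 0.27 at the spinal and 0.26 at the facial site. Their greatest spinal difference was 2.85 (Gfap), and 5 of 6 were positive at either site. Microglia markers averaged 12.06 to 12.61 on SOD1 mutant and 9.44 to 11.26 on wildtype spinal arrays, without overlap, with a positive difference in 9 of 9 tested genes, a median of 2 on the log2 scale and 2 genes called. On facial arrays they averaged 10.26 to 10.52 in SOD1 mutant and 8.99 to 11 in wildtype mice, and none of 7 was called. The part of these cells in the Kcn values was not tested.

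Other members of the inward rectifier family varied more within groups. Kcnj9, a subunit of G protein-gated rectifiers, had 13.30, 11.72 and 12.15 in SOD1 mutant spinal motor neurons, against 9.66, 12.45 and 10.28 in wildtype spinal motor neurons, so wildtype replicate 2 lay within the mutant range. The difference of 1.59 on the log2 scale did not pass, and without that wildtype array Kcnj9 (2.42, limma adjusted p = 0.0146) and Kcnab2 (0.55, limma adjusted p = 0.0420) were called. In facial motor neurons Kcnj13, a weakly rectifying channel of epithelia, had 7.09, 9.26 and 7.23 in SOD1 mutant against 9.73, 9.88 and 10 in wildtype mice. Its log2 difference of -2.01 did not pass, and it rests on a mutant mean below 8.79, so the gene passed the filter through the wildtype arrays. Without SOD1 mutant facial replicate 2, Kcnj10 (0.99, limma adjusted p = 0.0303) and Kcnj14 (0.42, limma adjusted p = 0.0420) were called, and so was Kcnj13, whose other mutant arrays are both close to background. Over all genes, leaving out single facial arrays gave 0 to 380 calls, against 0 with every array.

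In the cord tissue 34 of 49 tested Kcn genes had a negative difference (69.4%, against 51.3% of all genes), the most negative being Kcnab3 at -0.53, and none passed. Kcng4 had 11.55, 11.55 and 11.63 in SOD1 mutant and 11.90, 11.97 and 11.97 in wildtype tissue, and Kcna1 had 15.91, 15.87 and 15.93 in SOD1 mutant and 16.19, 16 and 16.07 in wildtype tissue. The groups did not overlap for either gene, and the log2 differences of -0.37 and -0.18 had limma adjusted p-values of 0.207 and 0.355. Microglia markers were called higher in 6 of 9 genes on the same arrays, where 0.623% of all genes were called in either direction. Their mean levels were 12.74 to 12.96 in SOD1 mutant and 12.06 to 12.13 in wildtype tissue, and their part in the Kcn values was not tested.

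Kcnip3 encodes a calcium sensor, also named DREAM or calsenilin, that binds Shal channels and can repress transcription. It measured 8.43, 8.48 and 8.40 in SOD1 mutant spinal motor neurons, against 5.42, 6.46 and 6.22 in wildtype spinal motor neurons, and 10.31, 11.08 and 10.57 in SOD1 mutant tissue, against 10.76, 10.81 and 10.82 in wildtype tissue. The spinal groups did not overlap, but both were below 8.79 and the gene was left out of that test; with no brightness filter its log2 difference was 2.40 (limma adjusted p = 0.436). For the genotype effect in spinal motor neurons minus that in tissue, Kcnip3 passed the brightness filter only through the tissue arrays, so its value of 2.55 ± 0.50 (SE; limma adjusted p = 0.163) rests on spinal levels close to background. Kcng4 had a value of 0.69 (limma adjusted p = 0.514). None of 49 Kcn genes passed in that comparison, with 0.055% of all genes called, and 6 had an unadjusted p under 0.05, as did 8.84% of all genes. Without wildtype spinal replicate 2, Kcng4 (0.86, limma adjusted p = 0.00965), Kcnab2 and Kcnt1 were called, as was Kcnip3 on the same background levels. Over all genes, leaving out single arrays gave 1 to 876 calls in that comparison, against 6 with every array. For the genotype effect in spinal minus facial motor neurons, 0 of 44 Kcn genes passed, with 0% of all genes called, and 4 had an unadjusted p under 0.05, as did 9.03% of all genes.

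Kcnq3 showed no called genotype difference, with log2 differences of -0.04 (95% interval -0.55 to 0.48) in spinal motor neurons, 0.33 (-0.07 to 0.73) in facial motor neurons and -0.06 (-0.28 to 0.15) in tissue. In facial motor neurons its arrays read 13.47, 13.30 and 13.71 in SOD1 mutant and 12.88, 13.41 and 13.20 in wildtype mice, which overlap. No protein of the partner list and no pump or cotransporter was called between genotypes in any kind of sample.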

How the data were processed

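RNA of 18 mouse samples was measured on 18 arrays. The authors deposited linear intensities of 45101 probe sets per array; how the images became intensities is not given in the sources used here. The 2% trimmed mean was 2500 on every array. Of the probe sets, 34958 had 1 gene symbol in the platform annotation, 932 several and 9211 none, and none with several symbols carried a Kcn symbol. No Kcn symbol needed updating from the reference table.

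From these deposited intensities, log2(intensity + 16) was computed, followed by quantile normalisation over 18 arrays. Differences are on this scale, which understates changes of dim genes. Each comparison was fitted on its own arrays (limma 3.58.1, lmFit and eBayes with trend, under R 4.3.3), with Benjamini-Hochberg adjustment at 0.05 over the 10916 genes at or above the 40th percentile. The fits were tested on simulated data. SE is limma's standard error and n = 3 arrays per group; arrays have no read depth, and their number limits the precision. The named genes are Kcnq3, Kcnip3 and, per comparison, called Kcn genes, up to 15 per direction, filled to 5 (3 for interactions) by smallest p. The members, lists and tests were chosen with earlier results of these data known. The alternatives were other scalings, pseudocounts, filters and fits, a covariate for the actin ratio, a block for the replicate number, and leaving out single arrays. The pairing by number was checked and not used. Promoters come from RefSeq (GRCm38.p6).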

Additional observations from a re-analysis of the deposited data

How the results depend on the processing

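Between genotypes the count of called Kcn genes was 0 under all alternatives that kept every array. Leaving out each array in turn gave 0 to 2 in spinal motor neurons, 0 to 3 in facial motor neurons and 0 to 4 for the effect in spinal motor neurons minus tissue, and 0 in tissue and for spinal minus facial motor neurons. Over all genes these omissions gave, in the same order, 2 to 665, 0 to 380, 1 to 876, 13 to 119 and 0 to 3 calls. The causes of the changes listed here were not tested. For wildtype motor neurons against tissue, a filter at the 60th percentile, which tests fewer genes, left 21 calls at the spinal and 24 at the facial site, and for SOD1 mutant ones 26 and 21. Leaving out arrays gave 25 to 36 and 30 to 38 calls in wildtype and 32 to 39 and 29 to 36 in SOD1 mutant mice. For spinal against facial motor neurons of SOD1 mutant mice, no mean-variance trend gave 4 calls, and leaving out arrays gave 10 to 13. In wildtype mice, no trend gave 3, all 18 arrays in one fit 21, the actin ratio 0, and leaving out arrays 1 to 8. The replicate number as a block gave 4 calls there; correlations of same-numbered arrays ran from -0.07 to 0.30, not above 0.1 for all pairs of any comparison, so the numbers were not taken as pairs, and every array correlated best with its own number only between genotypes in spinal motor neurons, as a hint from the data. The block moved no other Kcn count by over 1.5 times.

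Signs turned under the common-median scaling. In SOD1 mutant motor neurons against tissue this gave Kcnk1 0.08, Kcnc1 0.63, Kcnab2 0.92 and Kcnip1 0.18 (spinal) and Kcnc2 0.01, Kcnd2 0.29, Kcnab2 0.85 and Kcna1 1.12 (facial), and in wildtype ones Kcnk1 0.27, Kcnc1 0.65 and Kcnab2 0.56 (spinal) and Kcnk1 0.05, Kcna1 0.83, Kcna2 0.95 and Kcnab2 0.69 (facial). The higher share of Kcn calls was 75.7% (61% in the report) and 79.4% (58.8%) in SOD1 mutant and 66.7% (54.3%) and 69.4% (50%) in wildtype motor neurons at the spinal and facial site, and 36.4% (50%) for spinal against facial motor neurons of SOD1 mutant mice. Over all genes the higher share moved as well, to 79.4% (61%) and 81.4% (62.1%) in SOD1 mutant motor neurons at the spinal and facial site. In wildtype motor neurons it was 78.6% (60.6%) and 78.5% (60.5%), and for spinal against facial motor neurons of SOD1 mutant mice 40.1% (56%). Small uncalled differences also turned. Kcnq3 between genotypes in spinal motor neurons was 0.38 with the actin ratio and -0.17 to 0.15 with single arrays left out. Likewise with single arrays left out, its effect in spinal motor neurons minus tissue was -0.10 to 0.21, its difference between wildtype facial motor neurons and tissue -0.07 to 0.20, and that of Kcnip3 between genotypes in tissue -0.36 to 0.03. Over all genes the calls ranged, over all alternatives, from 0 to 665 between genotypes in spinal motor neurons (7 in the report), 0 to 380 in facial motor neurons (0) and 4 to 143 in tissue (68), 0 to 876 (6) and 0 to 26 (0) for the differences between genotype effects, 147 to 1132 (797) for spinal against facial motor neurons of SOD1 mutant and 4 to 1834 (433) of wildtype mice.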
